A study of Mus musculus with 8 samples.

Results

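The 3 Nr4a genes, Nr4a1, Nr4a2 and Nr4a3, were followed in RNA-seq counts from mouse brain cells that carry or lack a gene-trap allele of the sodium channel gene Scn2a. They are the whole of one nuclear receptor subfamily in the mouse, were picked by gene symbol, and make up 3 of the 54446 genes of the count table and 3 of the 17395 genes that passed the filter on low counts; all 3 passed it. The samples were 4 libraries from wild-type mice (WT replicates 1 to 4) and 4 from littermates homozygous for the trap, genotype Scn2agt/gt (HOM replicates 1 to 4), all of the strain labelled C75BL6 and bred from heterozygous parents. The labels name no agent for either group, and age and sex are not given in the labels. A gene trap is a cassette inserted into a gene that interrupts its transcript, and Scn2a encodes the neuronal sodium channel NaV1.2, so the design asks how a severe shortage of that channel alters neurons.

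Nr4a proteins are transcription factors of the nuclear receptor superfamily. They are called orphan receptors because no classical ligand switches them on: the pocket that holds a hormone in other receptors is filled by the protein's own side chains, so the amount of protein made largely sets its activity. All 3 are immediate early genes, which calcium and cyclic AMP signals induce in active neurons through CREB, MEF2 and SRF without new protein synthesis, and all 3 proteins can bind as monomers to the NBRE element. Nr4a2 has an additional standing role, being needed for midbrain dopamine neurons and marking cells of the claustrum and the deepest cortical layer.

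The promoter sequences are shown because they carry what the 3 genes share outside their counts, a run of CREB core sites. In the 250 bases before the RefSeq transcription start (build GRCm38.p6) each of the 3 genes held the core TGACG exactly 4 times, counting both strands. In the lines that follow, 5′ to 3′ on the gene's own strand, capitals mark these cores and a TATA box.
Nr4a1: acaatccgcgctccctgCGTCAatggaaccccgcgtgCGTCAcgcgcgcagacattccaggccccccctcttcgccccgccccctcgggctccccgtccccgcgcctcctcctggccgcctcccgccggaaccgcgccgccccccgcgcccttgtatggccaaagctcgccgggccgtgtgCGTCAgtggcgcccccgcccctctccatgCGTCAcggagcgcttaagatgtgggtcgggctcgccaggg
Nr4a2: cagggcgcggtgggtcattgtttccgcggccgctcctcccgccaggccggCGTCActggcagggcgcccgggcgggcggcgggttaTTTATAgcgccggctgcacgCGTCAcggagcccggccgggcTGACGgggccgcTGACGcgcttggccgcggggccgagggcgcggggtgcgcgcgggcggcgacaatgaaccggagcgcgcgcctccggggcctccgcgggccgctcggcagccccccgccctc
Nr4a3: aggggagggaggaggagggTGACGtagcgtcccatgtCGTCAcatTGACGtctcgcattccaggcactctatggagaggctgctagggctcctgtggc

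These stretches are chr15:101266596-101266845 on the plus strand for Nr4a1, chr2:57124004-57124253 on the minus strand for Nr4a2 and chr4:48045055-48045152 on the plus strand for Nr4a3. The Nr4a3 stretch stops after 98 bases, where a GENCODE exon of the gene begins, and its remaining core lies 147 to 143 bases before the RefSeq start. Of 32536 RefSeq windows of the same length, 17.9% held at least 1 core and 45 (0.138%) held 4 or more. Among the 6571 windows with a GC content of at least 63.6%, the lowest of the 3, the share with 4 or more was 0.380%, against a GC content of 74.4% for Nr4a1 and 80.0% for Nr4a2. No other gene of the lists described further on had a window with 4 or more, but not every listed gene had a window. Of 24 other activity-induced transcription factor genes listed, 18 had a window, and 13 of these held at least 1 core in a window. That count is by gene, whereas the 17.9% is by window, so they cannot be compared directly. By window, 28.0% of the 6571 windows with a GC content of at least 63.6% held at least 1 core.

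Other motifs were sparse in the 3 windows. The palindromic CRE TGACGTCA (in 1.56% of all windows), the CArG box of SRF (1.48%), the AP-1 motif TGANTCA (6.73%) and the NBRE AAAGGTCA (1.35%) had no exact match in any of the 3. The EGR motif GCGGGGGCG (2.60%) occurred once, in Nr4a1, and its variant GCGTGGGCG (0.541%) in none. Nr4a2 alone held a TATA box (TATAAA, 12.3%), on the opposite strand, and a MEF2 site (2.89%) that overlaps it. A match of letters describes the sequence and says nothing on binding in these samples.

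All of the libraries were of similar depth, with total counts between 27993412 and 37538988. Scn2a, the check of the labels, stood at 435 ± 51.6 CPM (counts relative to the library total, scaled by the TMM method) for WT and 128 ± 15.1 CPM for HOM (SD, n = 4), lower in every HOM library. The labels call the source neuron, but glial transcripts were abundant: 7 oligodendrocyte markers summed to between 3671 and 5505 CPM in WT libraries, beside 9923 to 11099 CPM for 8 neuron markers. Libraries 4 stood apart in other respects. WT replicate 4 was the richest in choroid plexus transcripts, and HOM replicate 4 had 2 counts over 4 Y-linked genes where the other 7 libraries had 4452 to 5984. Whether the libraries stem from different mice is not in the labels, and p-values cover the spread among these libraries only.

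Transcripts of all 3 Nr4a genes were lower in HOM. Nr4a3 fell to 48.7% of its WT level, Nr4a1 to 50.03% and Nr4a2 to 81.03%. All 3 passed the edgeR quasi-likelihood test with adjusted p under 0.05, a threshold at which 2.94% of all 17395 genes were called lower, 2.47% higher and 5.4% in either direction. For 2 of the 3, every HOM library lay below every WT library, which held for 7.47% of all genes, while 6.63% had every HOM library above every WT library. The calls differed in how far they depended on single libraries: only that of Nr4a3 held with each of the 8 libraries left out in turn. In bulk RNA, fewer cells that express a gene and less RNA per cell cannot be told apart.

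**Figure D1:**
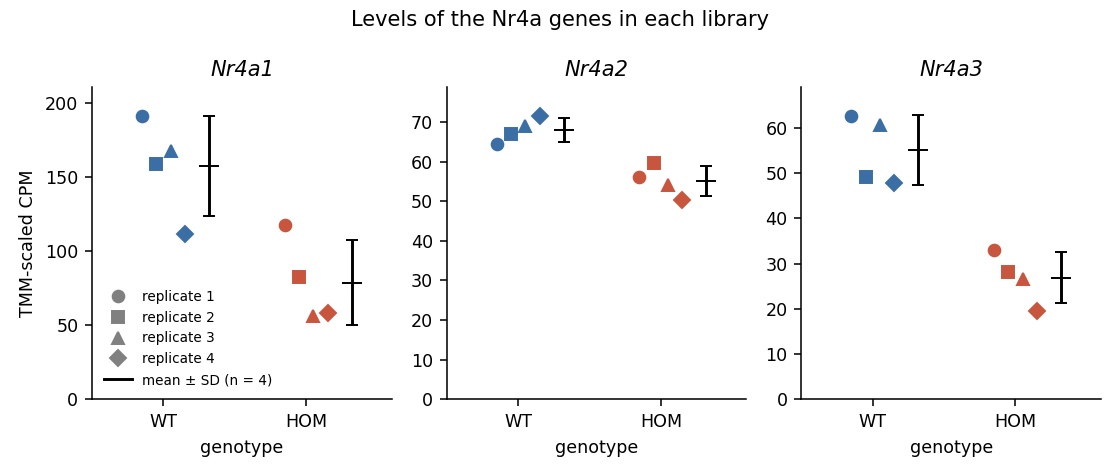
TMM-scaled CPM of Nr4a1, Nr4a2 and Nr4a3 in each library by genotype, with marker shape for the replicate number and bars for the mean ± SD of 4 libraries, on axes that start at 0. The genotypes do not overlap for Nr4a2 and Nr4a3, whereas HOM replicate 1 lies above WT replicate 4 for Nr4a1.

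Nr4a1, the most rapidly induced member in many cell types, had the widest spread. Its gene (ENSMUSG00000023034) occupies the plus strand of chromosome 15 (GRCm38) from 101254269 to 101274795. The WT libraries, in the order of replicates 1 to 4, held 191, 159, 168 and 111 CPM of Nr4a1, and the HOM libraries 118, 82.8, 56.5 and 57.9 CPM. The groups overlapped through WT replicate 4, the lowest WT value, and HOM replicate 1, the highest HOM value. The means were 157 ± 33.6 and 78.7 ± 28.7 CPM (SD, n = 4), a log2 fold change of -0.999 (SE 0.22, edgeR adjusted p = 0.0263). A two-sided exact permutation test on log2 CPM gave p = 0.0571. The call did not hold without WT replicate 1 (adjusted p = 0.0585), WT replicate 3 (0.0780), HOM replicate 3 (0.0955) or HOM replicate 4 (0.0584), nor with edgeR's robust option (0.0833).

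Nr4a2, the member with a standing role in dopamine neurons and the claustrum, differed least and varied least. It is encoded on the minus strand of chromosome 2 (ENSMUSG00000026826, from 57106830 to 57124003). In the same order the WT libraries held 64.5, 66.8, 69.0 and 71.6 CPM of Nr4a2, and the HOM libraries 56.2, 59.6, 54.2 and 50.4 CPM. All WT values were above all HOM values, with a gap smaller than the range within either genotype. The means were 68.0 ± 3.02 and 55.1 ± 3.87 CPM (SD, n = 4), a log2 fold change of -0.30 (SE 0.07, edgeR adjusted p = 0.0290; p = 0.0286 by exact permutation, the lower limit with 70 relabellings). This small difference lost its call without WT replicate 3 (0.0870), WT replicate 4 (0.0725), HOM replicate 1 (0.0924), HOM replicate 3 (0.109) or HOM replicate 4 (0.0626), and with library totals in place of TMM scaling (log2 fold change -0.24, adjusted p = 0.0578).

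Nr4a3, which does not pair with retinoid X receptors as its relatives do, showed the clearest separation. Its gene (ENSMUSG00000028341) occupies the plus strand of chromosome 4 from 48045153 to 48086447. Its WT libraries held 62.7, 49.05, 60.7 and 47.9 CPM in that order, and its HOM libraries 33.03, 28.2, 26.7 and 19.5 CPM. The highest HOM library was well below the lowest WT library. The means were 55.1 ± 7.70 and 26.8 ± 5.62 CPM (SD, n = 4), a log2 fold change of -1.04 (SE 0.14, edgeR adjusted p = 0.00379; exact two-sided permutation test p = 0.0286). Over the removals of single libraries its adjusted p ranged from 0.00374 to 0.0276, and the log2 fold change from -1.14 to -0.89.

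Among all 17395 genes, 105 had a more negative log2 fold change than Nr4a3, 118 than Nr4a1 and 1569 than Nr4a2. Counting error was between 1.19% and 3.81% for the members' counts, which ranged from 689 to 7074. The spread between libraries of a genotype (SD over mean) was 21.3% in WT and 36.4% in HOM for Nr4a1, 13.99% and 20.9% for Nr4a3, and 4.45% and 7.02% for Nr4a2.

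**Figure D2:**
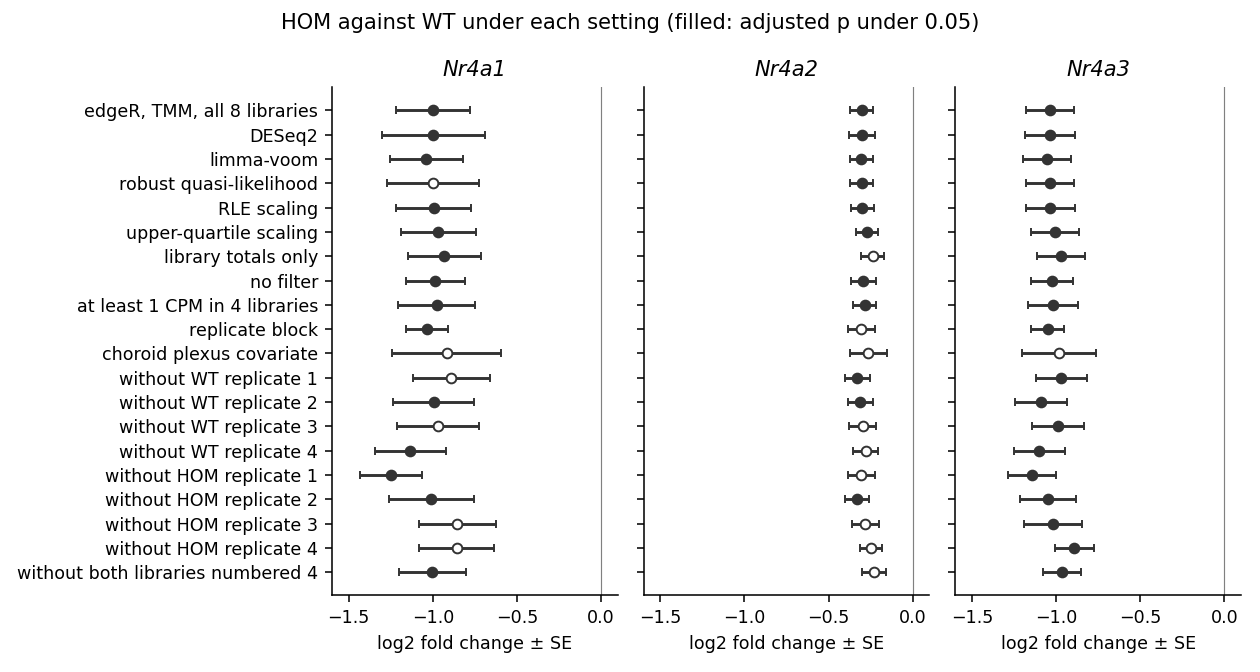
Log2 fold change of HOM against WT ± SE for each Nr4a gene under each test, scaling, filter, covariate and library removal, filled where adjusted p is under 0.05. All values are negative; those of Nr4a3 are filled in every setting except the choroid plexus covariate, and those of Nr4a2 stay between -0.33 and -0.23.

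Summed markers of several cell types differed between the genotypes as well. The 8 neuron markers summed to 9923 to 11099 CPM in WT and 8888 to 9265 CPM in HOM, so that HOM held 86.2% of the WT level (exact two-sided permutation test, p = 0.0286). None was at 0 and 2 of the 8 passed as lower. Camk2a, Snap25, Syt1 and Slc17a7 made up most of the sum, at 3862, 2303, 1717 and 1437 CPM in WT. The log2 fold changes of the 8 differed, with 7 below 0: Gad1 had -0.48, Stmn2 -0.08 and Rbfox3 0.10. Relative to that sum, a comparison chosen after the data were seen, Nr4a2 differed by -0.09 on the log2 scale (p = 0.314), Nr4a1 by -0.83 (p = 0.0571) and Nr4a3 by -0.84 (p = 0.0286; exact two-sided permutation tests, n = 4 a group). The genotypes still did not overlap for Nr4a3. The Nr4a2 groups overlapped on this scale.

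Glial and vascular marker sums were mostly lower in HOM too. HOM held 83.9% of the WT level for 7 astrocyte markers, 78.7% for 6 endothelial and 83.6% for 7 pericyte and fibroblast markers (exact two-sided permutation test, p = 0.0286 for each). That test was run on 14 marker sums without adjustment, and 0.0286 is the smallest p it can give. The range of the endothelial sum was 179 to 222 CPM in WT and 144 to 176 CPM in HOM. The 6 microglial markers summed to 247 to 283 CPM in WT and 269 to 295 CPM in HOM (exact two-sided permutation test, p = 0.143). The part of these signals in the Nr4a results was not tested.

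Choroid plexus markers differed most, at 146 to 1716 CPM in WT and 18.5 to 234 CPM in HOM for the sum of 10. An exact two-sided permutation test gave p = 0.0571, and 4 of 9 tested were lower. Kcnj13 stood at 0, which need not mean absence, since most genes nested in another gene had no counts here. The library richest in choroid plexus markers, WT replicate 4, had the lowest Nr4a1 and Nr4a3 and the highest Nr4a2 of the WT libraries. With their mean log2 CPM as a covariate the log2 fold changes were -0.92 (SE 0.32) for Nr4a1, -0.26 (SE 0.11) for Nr4a2 and -0.98 (SE 0.22) for Nr4a3. None of the 3 passed then (edgeR adjusted p = 0.264, 0.350 and 0.102). The covariate shares part of its spread with genotype, and with it 29 genes in all were called in place of 940.

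Summed markers of cells known for standing Nr4a2 expression overlapped between the genotypes. The 8 markers of the claustrum and the deepest cortical layer summed to 274 to 292 CPM in WT and 282 to 303 CPM in HOM. An exact two-sided permutation test of the sum gave p = 0.171. None of the 7 tested passed the threshold. They went both ways, with 3 below 0. The log2 fold changes ran from -0.42 for Cplx3 (edgeR adjusted p = 0.0550) to 0.29 for Oprk1 (0.0919). Synpr, Ntng2 and Gnb4 weighed most in the sum, at 107, 59.3 and 52.6 CPM in WT, where Cplx3 had 19.9 CPM. Lxn stood at 0, which likewise need not mean absence. The 7 markers of midbrain dopamine neurons summed to only 12.4 to 15.3 CPM in WT and 12.9 to 15.5 CPM in HOM; tyrosine hydroxylase (Th) stood at 1.30 ± 0.311 and 1.50 ± 0.319 CPM. Among other neuron classes, 8 striatal markers summed to 577 to 682 CPM in WT and 510.03 to 745 CPM in HOM, and 8 cortical markers to 665 to 811 and 698 to 780 CPM, with overlap in both. Exact two-sided permutation tests gave p = 0.714 for the dopamine neuron, 0.657 for the striatal and 0.543 for the cortical sum. The sum of 6 hippocampal markers did not overlap, at 186 to 225 CPM in WT and 156 to 185 CPM in HOM, or 85.5% of WT. An exact two-sided permutation test gave p = 0.0286. Wfs1 made up most of that sum, at 152 ± 7.08 CPM in WT and 132 ± 10.5 CPM in HOM. Of the 6, 5 had a log2 fold change below 0, only Fibcd1 was called lower, and Spink8 went the other way (0.40). The part of these cell markers in the Nr4a results was not tested.

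Levels can be compared between the paralogs only per length. Per kilobase of merged exons, Nr4a1 was the most abundant in WT at 44.8 ± 9.56 CPM per kb, followed by Nr4a2 at 16.7 ± 0.745 and Nr4a3 at 9.20 ± 1.29 (SD, n = 4). The order held in all 8 libraries. In HOM the levels were 22.4 ± 8.17, 13.6 ± 0.953 and 4.48 ± 0.939 CPM per kb. Of the family's summed level per kilobase, Nr4a1 made up 62.8% ± 5.23 in WT and 54.3% ± 6.79 in HOM, Nr4a2 24.2% ± 4.70 and 34.6% ± 6.05, and Nr4a3 13.03% ± 0.968 and 11.2% ± 1.37. The counts appear to include intron reads, and per kilobase of gene span Nr4a2 exceeded Nr4a1 in 2 of the 4 HOM libraries, whereas Nr4a1 led in all 4 WT libraries.

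Whether the paralogs differed from one another in their genotype difference was tested with the log2 ratio of their CPM within each library, in which library scaling cancels. The ratio of Nr4a3 to Nr4a2 was -0.04, -0.45, -0.18 and -0.58 in WT replicates 1 to 4. In HOM replicates 1 to 4 it was -0.77, -1.08, -1.02 and -1.37, below every WT value. The mean difference was -0.75, with group SDs of 0.24 and 0.25 (exact two-sided permutation test, p = 0.0286, or 0.0857 adjusted over the 3 pairs). The adjusted value misses 0.05, and with 70 relabellings 1 pair alone cannot pass after adjustment over 3.

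The ratio of Nr4a1 to Nr4a2 shifted by a similar amount with more overlap. It was 1.57, 1.25, 1.28 and 0.64 in WT replicates 1 to 4 and 1.06, 0.47, 0.06 and 0.20 in HOM replicates 1 to 4. The mean difference was -0.73 (exact two-sided permutation test, p = 0.0571, adjusted 0.0857). HOM replicate 1 again lay within the WT range.

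The ratio of Nr4a1 to Nr4a3 was alike in both genotypes, with a WT mean of 1.50 ± 0.209 and a HOM mean of 1.51 ± 0.312 (SD over 4 libraries). The difference of 0.01 was far smaller than the spread between libraries (exact two-sided permutation test, p = 0.971). Its sign changed with the removal of single libraries, over a range from -0.10 to 0.15.

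**Figure D3:**
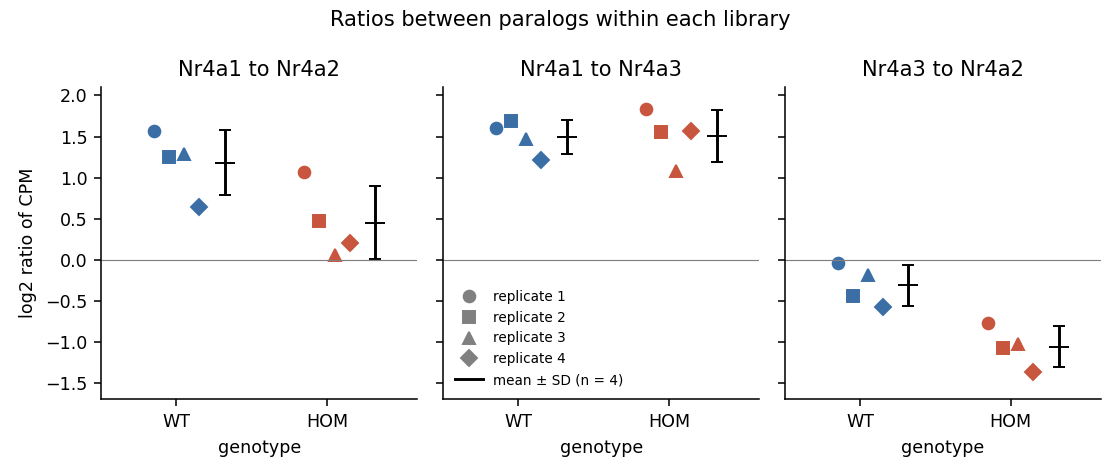
Log2 ratio of CPM between each pair of paralogs in every library, by genotype, with the mean ± SD of 4 libraries. The ratio of Nr4a3 to Nr4a2 is lower in all HOM libraries than in any WT library, and the ratio of Nr4a1 to Nr4a3 centres on 1.50 in WT and 1.51 in HOM.

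Within a genotype, Nr4a1 and Nr4a3 tended to be high and low in the same libraries and Nr4a2 did not share that order. As a description over 8 libraries, the deviations of log2 CPM from the genotype means had r = 0.80 for Nr4a1 with Nr4a3, 0.40 for Nr4a3 with Nr4a2 and 0.17 for Nr4a1 with Nr4a2. HOM replicate 1 was 0.65 above the HOM mean for Nr4a1, 0.32 for Nr4a3 and 0.03 for Nr4a2. HOM replicate 4 was the lowest HOM library for Nr4a3 and Nr4a2, at -0.44 and -0.13. WT replicate 4 was 0.47 below the WT mean for Nr4a1 (a deviation of -0.47) and 0.08 above it for Nr4a2.

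The genes most like each member were taken by the same measure among 9971 other protein-coding genes of at least 10 CPM. For Nr4a1 they were Ext1 (r = 0.99), Arc (0.99) and Gas7 (0.98). Arc, whose product regulates AMPA receptors at synapses, reached 272, 221, 238 and 163 CPM across the WT libraries in replicate order and 125, 90.4, 51.5 and 55.9 CPM across the HOM libraries. It thus had the same highest and lowest WT library as Nr4a1 and the same order of HOM libraries. For Nr4a2 they were Socs4 (0.96), Ccdc141 (0.96) and Rab33b (0.95), and for Nr4a3 Plxna4 (0.99), Mcph1 (0.99) and Ntrk3 (0.98). None of these 6 passed the test between genotypes, nor did Ext1 and Gas7. Many genes were as alike, with no cause tested: 87 genes had r above 0.9 with Nr4a1, 27 with Nr4a2 and 140 with Nr4a3. Spans of the genes named as most alike differed widely. They were 282 kb for Ext1, 3.49 kb for Arc and 234 kb for Gas7. Socs4, Ccdc141 and Rab33b span 19.2, 161 and 12.3 kb, and Plxna4, Mcph1 and Ntrk3 span 444, 208 and 562 kb. The part of length in the likeness was not tested.

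**Figure D4:**
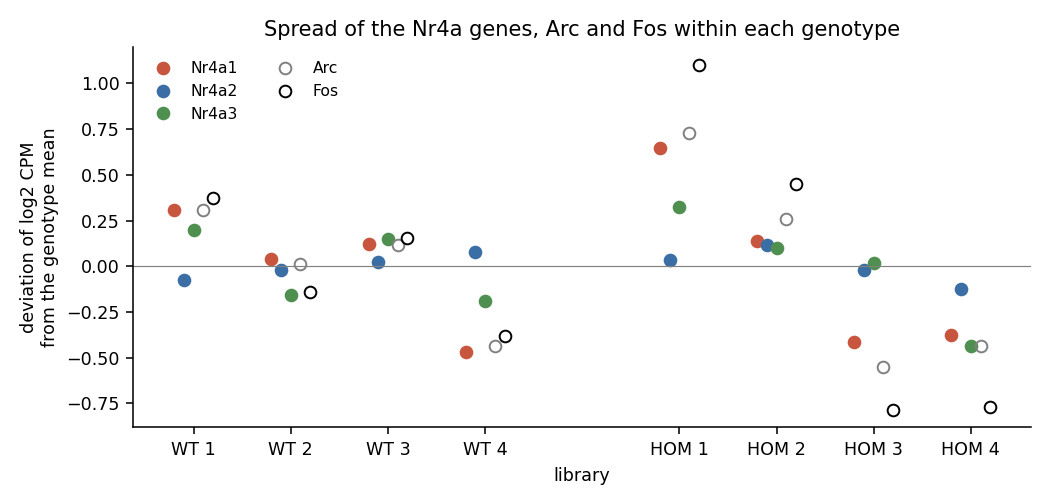
Deviation of log2 CPM from the genotype mean in each library for the 3 Nr4a genes (filled) and for Arc and Fos (open). Nr4a1 follows Arc closely, from 0.65 in HOM replicate 1 to -0.47 in WT replicate 4, while all deviations of Nr4a2 lie within 0.13 of 0.

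Of the factors known to drive Nr4a transcription, most did not pass the test, as was so for most of all genes. Of 15 activator genes tested, 14 missed the threshold, 1 was higher and none was lower. Among all genes 2.47% were called higher and 2.94% lower. The median log2 fold change of the activator genes was 0.06 against 0.00 over all genes. At an unadjusted p under 0.05, 4 differed, 1 of them lower, where 22.9% of all genes differed and 12.5% were lower. DESeq2 called 1 higher and none lower, against 5.13% higher and 7.14% lower of all genes to which it gave an adjusted p. Crtc3, a CREB coactivator, rose by 0.33 on the log2 scale (SE 0.07, edgeR adjusted p = 0.0228), with means of 35.4 ± 2.18 and 44.7 ± 2.20 CPM, above every WT library in each HOM library. That call did not hold once any of WT replicates 1, 3 and 4 or HOM replicates 1 and 3 was removed (adjusted p up to 0.0783). It was also lost with the choroid plexus covariate. Mef2c (-0.20, SE 0.11) and Mef2d (-0.11, SE 0.06), which encode MEF2 factors, were the most abundant of those that did not pass. Srf is listed at 0 in every library, as are most genes nested in another gene here, and was not measured.

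No partner or corepressor gene passed with edgeR, where 5.4% of all genes did. Of 13 tested, 4 had an unadjusted p under 0.05 (22.9% of all genes), DESeq2 called 2 higher (5.13% of all genes), and the median log2 fold change was 0.04. For 2 of the 13, named after their values were seen, every HOM library lay above every WT library, which held for 6.63% of all genes. The histone deacetylase gene Hdac1 stood at 35.9 ± 1.23 CPM in WT and 41.1 ± 1.76 CPM in HOM (edgeR adjusted p = 0.0970), and the CoREST gene Rcor1 at 37.3 ± 1.32 and 43.6 ± 3.94 CPM (0.0990). The retinoid X receptor genes had log2 fold changes of 0.04 for Rxra, -0.02 for Rxrb and 0.41 for Rxrg (SE 0.07, 0.13 and 0.14). Ehmt2, a histone methyltransferase gene, stood at 229 ± 18.2 CPM in WT and 236 ± 22.8 CPM in HOM.

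Of 46 other nuclear receptor genes listed, 35 were tested: 2 were higher, none was lower and 33 did not pass, with a median of -0.02. These counts stand beside 2.47% higher and 2.94% lower among all genes, and no test compared the list with the Nr4a genes. At an unadjusted p under 0.05, 9 of the 35 differed, 4 of them lower (22.9% and 12.5% of all genes). DESeq2, run on 45 of the list, called 3 higher and none lower (5.13% and 7.14% of all genes). Rarg, a retinoic acid receptor gene, rose by 0.46 on the log2 scale (SE 0.07, edgeR adjusted p = 0.00693), with means of 12.6 ± 0.217 and 17.3 ± 0.384 CPM. Esr1, the oestrogen receptor alpha gene, rose from 5.85 ± 0.896 to 8.84 ± 0.964 CPM (0.60, SE 0.13, edgeR adjusted p = 0.0273), a call lost without WT replicate 3 or HOM replicate 1, 3 or 4. Neither Rarg nor Esr1 was called with the choroid plexus covariate. The thyroid hormone receptor gene Thra (0.16, SE 0.08) and Rora (0.24, SE 0.09) were the most abundant that did not pass.

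Genes that neuronal activity induces alongside the Nr4a genes were lower in large numbers. Of 23 other transcription factor genes of this kind 14 fell, none rose and 9 did not pass, at a median of -0.71. Of 27 other activity-induced genes 18 fell, none rose and 9 did not pass, at a median of -0.56. Among all genes 2.94% were called lower and 2.47% higher. With DESeq2 the first list had 15 lower and 1 higher, and the second 21 lower and none higher. DESeq2 called 7.14% lower and 5.13% higher of all genes to which it gave an adjusted p. These lists were chosen with earlier results of the same data known. The first counted 9 lower without WT replicate 3 or HOM replicate 3, the second 10 without HOM replicate 3, and 8 and 3 were lower with the choroid plexus covariate.

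Single genes of these lists differed by more and by less than the Nr4a genes, with no test of those differences made. Egr2 (log2 fold change -2.73), Egr1 (-1.54) and Fosb (-1.36) fell further than Nr4a1, the kinase phosphatase gene Dusp6 (-1.09) by about as much as Nr4a3, and Egr3 (-0.81), Trib1 (-0.82), Arl4d (-0.72) and Plk3 (-0.53) by less. Nrn1, a neuritin gene named after its values were seen, fell from 119 ± 4.33 to 99.01 ± 5.68 CPM (-0.27, SE 0.06, edgeR adjusted p = 0.0317) and was the one called gene of these lists with a smaller difference than Nr4a2. Vgf (-0.35) and Plk2 (-0.22) were the most abundant of the second list that did not pass. Jun, which encodes an AP-1 subunit, had a log2 fold change of 0.33 (SE 0.10) and Jund 0.13 (SE 0.14); neither passed with edgeR, and genes overlap 21.6% and 55.1% of their spans. Jun was called higher with DESeq2 (adjusted p = 0.0219), with library totals (0.0389) and with no filter on low counts (0.0416).

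**Figure D5:**
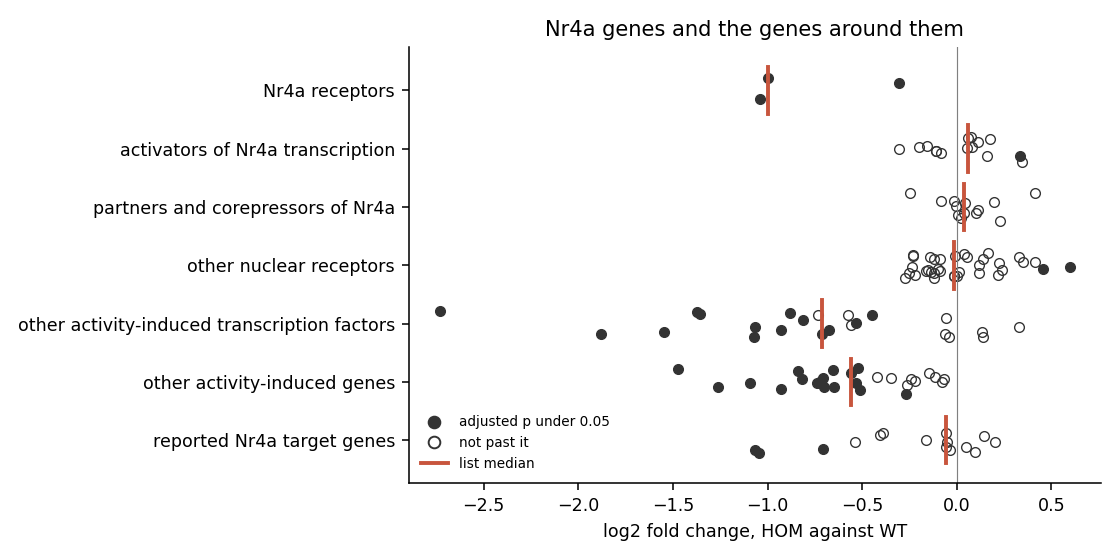
Log2 fold change of HOM against WT for the Nr4a genes and 6 lists around them, 1 point a gene, filled where adjusted p is under 0.05, with the list median as a bar and random vertical scatter. The activity-induced lists have medians of -0.71 and -0.56, whereas activators, partners, other nuclear receptors and reported targets lie within 0.06 of 0.

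Of 15 genes tested that are reported as Nr4a targets, 3 fell, none rose and 12 did not pass, at a median of -0.06. Among all genes 2.94% were called lower and 2.47% higher. At an unadjusted p under 0.05, 5 of the 15 differed, all of them lower, where 22.9% of all genes differed and 12.5% were lower. DESeq2, run on 16 of the list, called 5 lower and none higher (7.14% and 5.13% of all genes). Fosl2, an AP-1 gene that also counts among the activity-induced genes, reached 47.7, 46.2, 57.8 and 41.1 CPM across the WT libraries in replicate order and 26.7, 23.1, 23.03 and 19.2 CPM across the HOM libraries (log2 fold change -1.07, SE 0.12). Bdnf, a neurotrophin gene in the same position, fell from 23.0 ± 0.747 to 14.1 ± 2.93 CPM (-0.70, SE 0.12, edgeR adjusted p = 0.0110), a call lost without HOM replicate 3 (0.0567). Aldh1a1, a retinoic acid synthesis gene known in dopamine neurons, fell from 40.7 ± 8.69 to 19.8 ± 0.854 CPM (-1.04, SE 0.12), with other genes over 40.0% of its span and the highest value in WT replicate 4. With the choroid plexus covariate, which left 29 genes called in all, 1 of the 15 was lower and the calls of Bdnf and Aldh1a1 were lost. The chaperone genes Hspa5 (-0.16, SE 0.09) and Pdia6 (0.14, SE 0.09) were the most abundant that did not pass.

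The nearest genes on the chromosomes did not pass the test, and their differences were not tested against those of the Nr4a genes. Nearest on each side among tested protein-coding genes lie Grasp (log2 fold change -0.15) and Atg101 (-0.02) for Nr4a1, Kcnj3 (-0.20) and Gpd2 (-0.19) for Nr4a2, and Sec61b (0.24) and Stx17 (-0.12) for Nr4a3. The edgeR adjusted p ran from 0.148 to 0.948 over these 6. Both neighbours of Nr4a2 had an unadjusted edgeR p under 0.05 (0.0334 and 0.0239), as did 22.9% of all genes. Nr4a2 shares chromosome 2 with the trapped gene, 8.50 Mb before Scn2a. The 35 genes tested between them had a median log2 fold change of -0.08, and none passed, where 5.4% of all genes did. No other annotated gene overlaps the span of any Nr4a gene.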

How the data were processed

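RNA was extracted with a Qiagen RNeasy-type kit and sequenced as stranded, paired-end libraries, per the labels' protocols. The authors deposited raw counts per gene; FastQC 0.11.3, STAR, featureCounts, edgeR and the build GRCm38 are named in the submitters' processing notes, without settings. Of 1280 protein-coding genes nested in another gene, 1261 had no counts in any library, so intron reads may be included.

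The deposited counts were tested with edgeR 4.0.16 (R 4.3.3; filterByExpr, TMM scaling, quasi-likelihood F test, Benjamini-Hochberg over 17395 genes, threshold 0.05), WT against HOM, without a block. Log2 CPM used a prior count of 2. Exact permutation tests ran over all 70 relabellings. The edgeR test was first tried on simulated counts, and the permutation test on a fixed set of values with a known p. DESeq2 1.42.0, limma 3.58.1 (voom), other scalings, filters, a covariate, a replicate block and removal of libraries were alternatives, and the level relative to neuron markers was added after seeing the data. No 2 libraries agreed within sampling noise (lowest chi-square per degree of freedom 7.09).

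Annotation was GENCODE M21 (GRCm38), matching 54409 of 54446 gene IDs; 3 of 3 members matched RefSeq promoters of GRCm38.p6. The members, the lists of genes around them and the marker lists were chosen with earlier results of these data known. Genes named are the 3 members, Scn2a, the 4 of smallest p in each list among those that passed, the 2 most abundant that did not, the nearest neighbours, and the 3 most alike to each member; exceptions are stated, and 1 gene under this rule is not reported here. Marker sums not given in the report were, in WT and HOM, 4376 and 3576 CPM for oligodendrocytes, 91.5 and 79.9 for their precursors and 74.03 and 58.6 for blood. Exact two-sided permutation tests gave p = 0.0857, 0.0857 and 0.429 for them. Gpr17, P2ry12 and Alas2 stood at 0, which need not mean absence, since most genes nested in another gene had no counts.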

Additional observations from a re-analysis of the deposited data

Results flagged for a closer look

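In 5 of 96 groups of 4 libraries checked, 1 library stood far from the other 3 by Dixon's test, where chance gives about 1 in 20; no Nr4a gene was among them. Esr1 was at 4.52 CPM in WT replicate 2 and at 6.16 to 6.46 CPM in the other WT libraries. Egr1 was at 433 CPM in WT replicate 3 against 351 to 361 CPM. Egr3 was at 90.4 CPM in HOM replicate 4 against 101 to 103 CPM in the other HOM libraries. Jund was at 149.9 CPM in WT replicate 2 against 97.8 to 101 CPM. Ccdc141, among the genes most alike to Nr4a2, was at 29.8 CPM in WT replicate 4 against 23.5 to 24.5 CPM.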

How the results depend on the processing

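All 3 Nr4a genes stayed lower in HOM in each setting tried; the cause of each lost call was not tested. Leaving out 1 library gave log2 fold changes of -1.25 to -0.85 for Nr4a1, -0.33 to -0.25 for Nr4a2 and -1.14 to -0.89 for Nr4a3, and 180 to 1187 genes called in place of 940. The call of Nr4a1 was lost with robust quasi-likelihood (-0.999, adjusted p = 0.0833), that of Nr4a2 with library totals (-0.24, 0.0578) and without both libraries numbered 4 (-0.23, 0.116), and all 3 with the choroid plexus covariate (-0.92, -0.26 and -0.98). Relative to neuron markers, Nr4a1 (-0.83) and Nr4a2 (-0.091) did not pass the exact permutation test. DESeq2 called 1846 genes, the covariate left 29, and removal of both libraries numbered 4 left 335. The split of 429 higher and 511 lower became 844 and 286 with library totals and 539 and 355 with upper-quartile scaling.

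The replicate numbers do not pair the libraries: same-numbered deviations had r of 0.05, -0.20, -0.01 and 0.03, and 0 of 8 libraries correlated best with their own number. The replicate block called 364 genes, and Nr4a2 did not pass with it (-0.30, adjusted p = 0.0844), while Nr4a1 (-1.04) and Nr4a3 (-1.05) did. With the block, the Nr4a3 to Nr4a2 ratio differed by -0.75 (exact sign-flip test, p = 0.125, the smallest possible).

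Leaving out 1 library gave -0.94 to -0.60 for the ratio of Nr4a1 to Nr4a2 and -0.84 to -0.64 for that of Nr4a3 to Nr4a2, which was -0.73 without both libraries numbered 4 (exact p = 0.1, the smallest possible). The ratio of Nr4a1 to Nr4a3 changed sign without WT replicate 4 (-0.08), HOM replicate 1 (-0.10), 2 (-0.0027) or 4 (-0.0091) and without both libraries numbered 4 (-0.10), in a range up to 0.15. Per kilobase of span the WT levels were 7.66, 3.96 and 1.33 CPM for Nr4a1, Nr4a2 and Nr4a3. Spearman rho was 0.071 for Nr4a1 with Nr4a2, 0.86 for Nr4a1 with Nr4a3 and 0.24 for Nr4a3 with Nr4a2. Without 1 library, 0 to 1 other nuclear receptor genes, 9 to 14 activity-induced transcription factor genes and 10 to 17 other activity-induced genes were lower.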
